A study of Arabidopsis thaliana with 24 samples.

Results

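The Small auxin-up RNA (SAUR) genes examined here are 35 loci of Arabidopsis thaliana, chosen from a list of locus identifiers and grouped by their place in the genome. They were chosen with earlier results of these data known. They make up 35 of the 32678 loci counted in each library. Of these, 25 lie in 5 tandem clusters, which are named here by the shared start of their locus identifiers: AT5G180, AT1G294-295, AT3G038, AT4G388 and AT4G347. The other 10 are called single members, although SAUR7 and SAUR6 among them are neighbours. All 35 were found in the deposited tables and all carry a SAUR symbol in the RefSeq annotation. AT1G29490 shares the symbol SAUR68 with AT1G29510 there, so it is called by its locus identifier and SAUR68 means AT1G29510.

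SAUR genes are a large plant family without introns in most members, known as early targets of the growth hormone auxin. Their short transcripts turn over quickly. The proteins of the AT5G180 cluster are known to block PP2C.D phosphatases, which otherwise switch off the proton pumps of the plasma membrane, and active pumps acidify the wall and let the cell expand. In leaves and hypocotyls, many family members also answer to brassinosteroids, light and temperature through PIF and BZR transcription factors.

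RNA was measured in whole rosettes of plants 3 weeks old, from the accessions C24, Te and Col-0 and from CT101, for which the labels state no origin. Each line was sampled as untreated control and after 2 h of ozone at 350 ppb, so there were 8 groups of 3 libraries. The series sets C24 beside Te as accessions of unlike ozone sensitivity. Rosettes were pooled within each line and treatment, and the labels do not say whether the 3 RNA replicates came from separate pools, so p-values measure the spread between these libraries. Neither the interval from exposure to harvest nor the air given to controls is stated.

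Libraries held 13633768 to 25789925 counts, so that 1 count equals 0.0404 to 0.0789 CPM, the count scaled to library size, here with composition (TMM) factors. The rosette label was checked with marker genes. The 5 leaf markers summed to 37100 to 59400 CPM in controls and to 18500 to 39300 CPM under ozone, and the part of this shift in the SAUR results was not tested. The 5 root markers summed to 32.6 to 84.3 CPM, with EXPA18 at 0 counts in every library, and the 6 flower markers to 0.44 to 2.71 CPM. Ozone replicate 2 stood apart in C24, with a score of 41.4 on the first principal component against 95.1 and 109 for the other ozone libraries of that line. It lay nearest to the controls among the ozone libraries of each line. The summed level of the 35 loci was also highest in ozone replicate 2 in every line.

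Of the 35 loci, 30 passed the filter on low counts. SAUR25 and SAUR11 had 0 counts in all 24 libraries, and a count of 0 allows up to 0.00658 CPM over all libraries, for counting error only. SAUR13, in the AT4G388 cluster, had 4 counts over all libraries and SAUR46 had 12. AT1G29490 had 64 counts and ranged from 0.0522 to 0.175 CPM in C24 controls and from 0.329 to 0.466 CPM in Col-0 controls. From control to ozone, its counts per group went from 7 to 3 in C24 and from 11 to 4 in CT101. They went from 13 to 1 in Te and from 24 to 1 in Col-0. The Col-0 ratio, the largest, was 24.9-fold (95% counting interval 4.06 to 1020) lower under ozone and rests on that 1 count. These 5 loci were not tested.

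The first comparison asks how ozone changed the SAUR transcripts within each line. Most of them fell steeply. In C24, 23 of the 30 tested members were lower under ozone, 1 was higher and 6 did not pass the test, where 22.2% of all 20554 tested genes were lower, 25.6% higher and 47.8% called in either direction. In Te, 25 members were lower and 1 was higher, against 30.9% and 32% of all tested genes, of which 62.9% were called. In CT101, 24 were lower and 1 higher, against 32.4% and 32.9%, with 65.3% called. In Col-0, 26 were lower and 1 higher, against 26.9% and 30%, with 56.9% called. Calls required an adjusted p below 0.05 in edgeR's quasi-likelihood test, with Benjamini-Hochberg adjustment over all tested genes.

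The falls of the listed members were large for this experiment. Because the members were chosen with earlier results of these data known, their shares and medians describe these loci and do not test the family. Of 24 other SAUR loci tested, 5 were lower and 7 higher in C24, 7 and 10 in Te, 7 and 9 in CT101, and 8 and 8 in Col-0. At least a 2-fold fall was called for 23 members in C24, 25 in Col-0, 24 in Te and 24 in CT101, beside 4.87%, 8.42%, 11.6% and 13.9% of all tested genes. The median log2 fold change of the tested members was -2.26 in C24, -3.43 in Col-0, -3.50 in Te and -3.29 in CT101, where that of all genes was -0.03, -0.01, -0.03 and -0.02. Of the 30 tested members, 23 were lower in all 4 lines, 1 was higher in all 4, 3 were lower in 1 to 3 lines and 3 were not called in any. The share of all tested genes called in all 4 lines was not counted. It cannot exceed the shares in C24, which were 22.2% lower and 25.6% higher. In pooled rosettes, less RNA per cell and fewer cells that make it cannot be told apart.

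**Figure D1:**
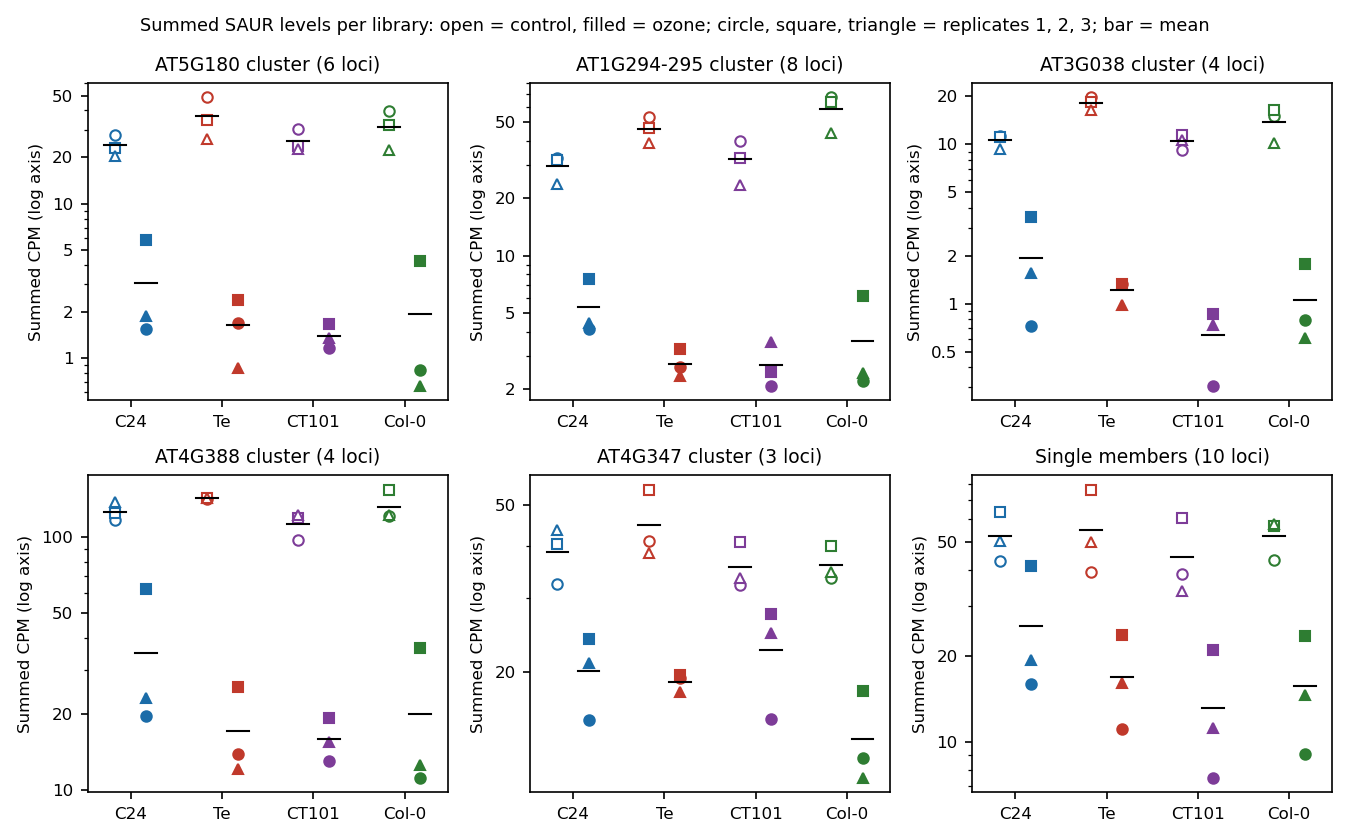
Summed CPM of each tandem cluster and of the single members in every library, on log axes, for the 4 lines. Open symbols are controls, filled symbols ozone, the shape gives the replicate and the bar the mean of 3. In every panel the ozone libraries of a line lie below its controls, by the widest margin in the AT5G180, AT1G294-295 and AT3G038 clusters.

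The AT5G180 cluster on chromosome 5 holds SAUR19 (AT5G18010), SAUR20 (AT5G18020), SAUR21 (AT5G18030), SAUR22 (AT5G18050), SAUR23 (AT5G18060) and SAUR24 (AT5G18080), between positions 5962897 and 5984112 of the TAIR10 build. Summed over its 6 loci, the control libraries held 27.9, 23 and 20.4 CPM in C24, 39.5, 32.3 and 22.2 in Col-0, 48.6, 34.8 and 26.3 in Te and 30.3, 23.6 and 22.4 in CT101. Ozone libraries held 1.55, 5.78 and 1.87 CPM in C24, 0.838, 4.28 and 0.663 in Col-0, 1.68, 2.37 and 0.864 in Te and 1.17, 1.66 and 1.36 in CT101. Ozone and control libraries did not overlap in any line, and the mean sum under ozone was 12.9% of that in controls in C24, 6.14% in Col-0, 4.48% in Te and 5.5% in CT101. All 6 members were lower in each line. Without ozone replicate 2, the share was 7.17% in C24 and 2.39% in Col-0.

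The 6 genes are close copies, with 87.7% to 95.2% identity between their coding sequences. A stretch of 90 bases that can be aligned in all 6 without gaps is shown for each, read from the TAIR10.1 genome in the direction of the gene, to show how little separates them. Capitals mark bases that differ from SAUR19.
SAUR19: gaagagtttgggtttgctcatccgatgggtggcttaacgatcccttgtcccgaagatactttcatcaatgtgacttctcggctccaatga
SAUR20: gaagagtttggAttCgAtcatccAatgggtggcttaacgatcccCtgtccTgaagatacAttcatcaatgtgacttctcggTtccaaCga
SAUR21: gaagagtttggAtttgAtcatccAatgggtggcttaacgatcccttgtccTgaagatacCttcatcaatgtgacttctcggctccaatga
SAUR22: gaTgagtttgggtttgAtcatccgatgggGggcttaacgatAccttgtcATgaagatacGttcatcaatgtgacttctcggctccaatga
SAUR23: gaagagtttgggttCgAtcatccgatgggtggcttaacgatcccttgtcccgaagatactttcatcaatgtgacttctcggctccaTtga
SAUR24: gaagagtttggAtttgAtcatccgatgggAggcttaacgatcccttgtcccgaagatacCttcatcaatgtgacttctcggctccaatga
SAUR23 differs from SAUR19 at 3 of the 90 bases and SAUR20 at 9. Of all runs of 50 bases in SAUR19, 23.5% occur elsewhere in the genome, against 14.3% in SAUR24 and 0% in SAUR22, while no run of 100 bases in the 6 loci does. How the authors' counting treated reads that match several places is not given in the sources used here, so the split among these copies is uncertain and the sum over the cluster is less exposed to it.

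SAUR21 and SAUR20 had the highest means over all 24 libraries in the cluster. Control libraries held SAUR21 at 11.3, 8.7 and 8.36 CPM in C24, 12.9, 10.5 and 7.22 in Col-0, 15.1, 10.6 and 8.13 in Te and 12.1, 9.21 and 9.32 in CT101. Ozone libraries held SAUR21 at 0.483, 2.46 and 0.534 CPM in C24, 0.247, 1.45 and 0.111 in Col-0, 0.406, 0.474 and 0.123 in Te and 0.306, 0.431 and 0.124 in CT101. The groups did not overlap in any line, and ozone replicate 2 was the highest ozone library in each. Its log2 fold changes were -3.11 ± 0.52 in C24, -3.94 ± 0.55 in Col-0, -5.09 ± 0.64 in Te and -5.12 ± 0.64 in CT101, with adjusted p-values up to 8.9e-05 (SE, n = 3 per group, edgeR). Control libraries held SAUR20 at 6.17, 3.66 and 5.22 CPM in C24, 11.8, 8.75 and 6.04 in Col-0, 15.3, 10.6 and 8.96 in Te and 5.15, 5.18 and 4.91 in CT101. Ozone libraries held SAUR20 at 0.241, 1.2 and 0.587 CPM in C24, 0.197, 1.17 and 0.0553 in Col-0, 0.406, 0.395 and 0.308 in Te and 0.255, 0.123 and 0.0618 in CT101. Again no ozone library reached a control, and Te controls had the highest mean. For SAUR20 the log2 fold changes were -2.96 ± 0.51 in C24, -4.07 ± 0.50 in Col-0, -4.95 ± 0.55 in Te and -4.99 ± 0.65 in CT101, with adjusted p-values up to 1.0e-04.

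The other 4 members fell in every line as well. Their log2 fold changes ran from -3.49 for SAUR19 to -2.28 for SAUR23 in C24 and from -4.28 for SAUR22 to -3.39 for SAUR19 in Col-0. In Te, SAUR19 had at most 3 counts under ozone and was 34.4-fold (95% counting interval 11.5 to 169) lower, and SAUR22 was 23.8-fold (95% counting interval 7.9 to 118) lower.

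The AT1G294-295 cluster on chromosome 1 holds 8 loci in 2 runs on opposite strands, between positions 10301152 and 10323189. The first run is SAUR61 (AT1G29420), SAUR62 (AT1G29430), SAUR63 (AT1G29440), SAUR64 (AT1G29450) and SAUR65 (AT1G29460), and the second AT1G29490, SAUR66 (AT1G29500) and SAUR68 (AT1G29510). The products of SAUR61 to SAUR68 are known to promote elongation of hypocotyls and stamen filaments. Summed over the 8 loci, control libraries held 32.6, 31.8 and 23.7 CPM in C24, 67.5, 64.1 and 43.9 in Col-0, 53.3, 46.6 and 39.1 in Te and 39.8, 32.6 and 23.6 in CT101. Under ozone the sums were 4.15, 7.58 and 4.43 CPM in C24, 2.22, 6.14 and 2.43 in Col-0, 2.61, 3.24 and 2.34 in Te and 2.09, 2.46 and 3.52 in CT101. The groups were apart in every line, and the mean sum under ozone was 18.3% of the control in C24, 6.15% in Col-0, 5.89% in Te and 8.41% in CT101, or 3.98% in Col-0 without ozone replicate 2. Of the 7 tested members, 6 were lower in C24 and 7 in each other line.

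SAUR62 and SAUR68 had the highest means over all 24 libraries, although SAUR63 and SAUR64 exceeded SAUR68 in Col-0 controls and SAUR63 exceeded SAUR62 in CT101 controls. Control libraries held SAUR62 at 9.25, 8.01 and 8.25 CPM in C24, 13.2, 14.6 and 8.51 in Col-0, 9.72, 10.5 and 8.33 in Te and 6.35, 5.85 and 5.01 in CT101. Ozone libraries held SAUR62 at 0.821, 2.26 and 1.39 CPM in C24, 0.641, 1.78 and 0.387 in Col-0, 0.406, 0.553 and 0.617 in Te and 0.153, 0.308 and 0.803 in CT101. No library of one group reached the other. For SAUR62 the log2 fold changes were -2.55 ± 0.37 in C24, -3.62 ± 0.38 in Col-0, -4.17 ± 0.44 in Te and -3.80 ± 0.46 in CT101, with adjusted p-values up to 1.7e-05. Control libraries held SAUR68 at 6.17, 6.77 and 5.01 CPM in C24, 11.3, 9.37 and 6.24 in Col-0, 11.4, 8.46 and 7.2 in Te and 8.79, 6.91 and 4.51 in CT101. Ozone libraries held SAUR68 at 1.01, 1.6 and 0.641 CPM in C24, 0.493, 0.727 and 0.553 in Col-0, 0.812, 0.947 and 0.432 in Te and 0.255, 0.554 and 0.865 in CT101. The groups did not overlap here either, with log2 fold changes of -2.49 ± 0.35 in C24, -3.89 ± 0.36 in Col-0, -3.64 ± 0.37 in Te and -3.62 ± 0.38 in CT101 and adjusted p-values up to 8.7e-06. SAUR62, SAUR63 and SAUR68 share sequence, with 28.6%, 27.1% and 26.5% of their runs of 50 bases found elsewhere in the genome and 10.7%, 18.9% and 18.4% of their runs of 100 bases, so the split of reads among these 3 is uncertain.

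SAUR63 and SAUR64 fell in all lines, by log2 fold changes from -2.75 in C24 to -3.87 in Te for SAUR63 and from -3.13 in C24 to -4.52 in Col-0 for SAUR64. Control libraries held SAUR66 at 6.23, 6.23 and 3.5 CPM in C24, 9.49, 8.42 and 6.96 in Col-0, 8.7, 8.36 and 6.52 in Te and 7.73, 4.94 and 3.57 in CT101. Ozone libraries held SAUR66 at 1.11, 1.6 and 1.01 CPM in C24, 0.296, 0.686 and 0.497 in Col-0, 0.232, 0.237 and 0.37 in Te and 0.56, 0.185 and 0.185 in CT101. The ozone libraries of C24, at 1.01 CPM or more, lay above every ozone library of the other lines. For SAUR66 the log2 fold changes were -2.11 ± 0.32 in C24, -4.03 ± 0.35 in Col-0, -4.77 ± 0.41 in Te and -4.04 ± 0.40 in CT101, with adjusted p-values up to 2.6e-05. Control libraries held SAUR65 at 5.06, 4.75 and 2.19 CPM in C24, 7.45, 7.44 and 5.67 in Col-0, 7.43, 6.17 and 5.18 in Te and 5.46, 5.37 and 2.92 in CT101. Ozone libraries held SAUR65 at 0.628, 0.864 and 0.587 CPM in C24, 0.0986, 0.686 and 0.387 in Col-0, 0.232, 0.158 and 0.247 in Te and 0.509, 0.308 and 0.556 in CT101. The groups did not overlap, with log2 fold changes of -2.54 ± 0.38 in C24, -4.06 ± 0.40 in Col-0, -4.81 ± 0.47 in Te and -3.30 ± 0.41 in CT101 and adjusted p-values up to 2.3e-05.

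SAUR61 was the tested member of this cluster that was not called in C24, where it held 6 counts in controls and 6 under ozone. Control libraries held SAUR61 at 0.116, 0.0989 and 0.104 CPM in C24, 1.46, 1.15 and 0.722 in Col-0, 0.684, 0.867 and 0.466 in Te and 0.533, 0.384 and 0.347 in CT101. Ozone libraries held SAUR61 at 0.0966, 0.199 and 0.0534 CPM in C24, 0, 0.0404 and 0.0553 in Col-0, 0.058, 0.158 and 0 in Te and 0, 0.0615 and 0.0618 in CT101. In C24 the groups overlapped at a low level and the log2 fold change was 0.06 ± 0.75 (adjusted p = 0.97). With at most 3 counts under ozone, SAUR61 was 10.4-fold (95% counting interval 3.3 to 52.3) lower in Te, 11.1-fold (95% counting interval 2.78 to 96) lower in CT101 and 34.7-fold (95% counting interval 9.25 to 293) lower in Col-0. The annotation places AT1G29418 on the opposite strand of this locus, and the strand setting of the counting is not stated, so reads of the 2 genes cannot be told apart.

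The AT3G038 cluster on chromosome 3, between positions 976933 and 983751, holds SAUR29 (AT3G03820), SAUR28 (AT3G03830), SAUR27 (AT3G03840) and SAUR26 (AT3G03850), which are 77.7% to 86.3% identical in coding sequence. Genes of this cluster are known for rosette growth that varies with temperature among accessions. Summed over the 4 loci, control libraries held 11.3, 11.2 and 9.35 CPM in C24, 15, 16.5 and 10.2 in Col-0, 19.7, 18.5 and 16.4 in Te and 9.24, 11.5 and 10.7 in CT101. Under ozone the sums were 0.724, 3.52 and 1.55 CPM in C24, 0.789, 1.78 and 0.608 in Col-0, 1.33, 1.34 and 0.987 in Te and 0.306, 0.862 and 0.741 in CT101. The groups were apart in each line. Means under ozone were 18.2% of the control in C24, 7.62% in Col-0, 6.71% in Te and 6.07% in CT101, or 10.7% in C24 and 5.03% in Col-0 without ozone replicate 2. All 4 members were lower in all 4 lines.

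Control libraries held SAUR29 at 5.65, 5.34 and 5.17 CPM in C24, 6.29, 7.6 and 5.52 in Col-0, 9.09, 7.6 and 8.9 in Te and 5.2, 6.91 and 5.85 in CT101. Ozone libraries held SAUR29 at 0.193, 2.33 and 0.908 CPM in C24, 0.247, 1.05 and 0.276 in Col-0, 0.348, 0.316 and 0.123 in Te and 0.306, 0.123 and 0.556 in CT101. No ozone library reached a control, and C24 ozone replicate 2 was the highest of the ozone libraries. For SAUR29 the log2 fold changes were -2.32 ± 0.46 in C24, -3.53 ± 0.49 in Col-0, -5.00 ± 0.58 in Te and -4.17 ± 0.55 in CT101, with adjusted p-values up to 4.1e-04. Control libraries held SAUR27 at 3.38, 2.97 and 2.46 CPM in C24, 5.24, 3 and 1.96 in Col-0, 4.94, 5.4 and 3.68 in Te and 2, 2.3 and 2.53 in CT101. Ozone libraries held SAUR27 at 0.338, 0.598 and 0.32 CPM in C24, 0.0493, 0.363 and 0.0553 in Col-0, 0.232, 0.395 and 0.308 in Te and 0, 0.369 and 0 in CT101. The groups did not overlap, and 2 CT101 ozone libraries had no count. For SAUR27 the log2 fold changes were -2.82 ± 0.51 in C24, -4.25 ± 0.56 in Col-0, -3.91 ± 0.54 in Te and -4.22 ± 0.65 in CT101, with adjusted p-values up to 1.5e-04. SAUR26 fell by log2 fold changes of -2.34 ± 0.43 in C24, -3.07 ± 0.40 in Col-0, -2.75 ± 0.39 in Te and -3.80 ± 0.52 in CT101. SAUR28, the rarest of the 4, was 9.01-fold (95% counting interval 2.83 to 45.9) lower in CT101 and 36.3-fold (95% counting interval 9.68 to 306) lower in Col-0. From control to ozone, its counts per group went from 34 to 1 in C24 and from 79 to 5 in Te.

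The AT4G388 cluster on chromosome 4, between positions 18121526 and 18131060, gave the highest summed level of the clusters. It holds SAUR13 (AT4G38825), SAUR14 (AT4G38840), SAUR15 (AT4G38850) and SAUR16 (AT4G38860). SAUR15, also known as SAUR-AC1, is the family's classic auxin-induced transcript. Control sums were 117, 125 and 138 CPM in C24, 121, 154 and 122 in Col-0, 142, 143 and 143 in Te and 97.5, 119 and 122 in CT101. Under ozone the sums were 19.7, 62.3 and 23.1 CPM in C24, 11.2, 36.6 and 12.6 in Col-0, 13.9, 25.6 and 12.2 in Te and 13.1, 19.4 and 15.6 in CT101. The groups were apart in each line, and means under ozone were 27.7% of the control in C24, 15.2% in Col-0, 12.1% in Te and 14.2% in CT101. Without ozone replicate 2 they were 16.9% in C24 and 9% in Col-0. SAUR14, SAUR15 and SAUR16 were lower in all 4 lines, while SAUR13 was too rare to test.

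Control libraries held SAUR16 at 58.3, 65.3 and 72.1 CPM in C24, 66.7, 81.2 and 69.2 in Col-0, 67.2, 74 and 73 in Te and 41.4, 62.4 and 59.5 in CT101. Ozone libraries held SAUR16 at 8.55, 31.5 and 11.3 CPM in C24, 4.29, 18.5 and 5.58 in Col-0, 4.76, 10.1 and 4.75 in Te and 4.79, 9.42 and 5.56 in CT101. C24 ozone replicate 2 was nearest to the controls but still below each of them. For SAUR16 the log2 fold changes were -1.94 ± 0.46 in C24, -2.92 ± 0.48 in Col-0, -3.47 ± 0.50 in Te and -3.05 ± 0.49 in CT101, with adjusted p-values up to 0.002. Control libraries held SAUR14 at 54.9, 53.2 and 61.5 CPM in C24, 47.4, 65 and 46.5 in Col-0, 66, 57.2 and 61.1 in Te and 53.3, 52.1 and 58.4 in CT101. Ozone libraries held SAUR14 at 10.5, 28.2 and 11 CPM in C24, 6.16, 17.1 and 6.41 in Col-0, 8.07, 14 and 6.54 in Te and 8.05, 9.6 and 9.51 in CT101. Ozone replicate 2 was again the highest ozone library in every line, with no overlap. For SAUR14 the log2 fold changes were -1.78 ± 0.36 in C24, -2.41 ± 0.37 in Col-0, -2.70 ± 0.38 in Te and -2.59 ± 0.37 in CT101, with adjusted p-values up to 5.1e-04. SAUR15 fell by log2 fold changes of -1.87 ± 0.36 in C24, -3.20 ± 0.37 in Col-0, -3.13 ± 0.37 in Te and -3.29 ± 0.44 in CT101, with adjusted p-values up to 3.2e-04. None of the 4 loci of this cluster shares a run of 50 bases with another place in the genome.

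The AT4G347 cluster on chromosome 4, between positions 16577404 and 16591892, held members that moved in opposite directions. SAUR50 (AT4G34760) fell and SAUR1 (AT4G34770) rose, while SAUR49 (AT4G34750) passed the test in Te and Col-0 alone. Their coding sequences are 41.1% to 55.5% identical and share no run of 50 bases with other places. The mean sum under ozone was 51.8% of the control in C24, 38.6% in Col-0, 42.5% in Te and 63.5% in CT101.

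Control libraries held SAUR50 at 23.9, 27 and 28.5 CPM in C24, 25.8, 28.6 and 22.8 in Col-0, 33.6, 41 and 29.2 in Te and 22.8, 26.6 and 21 in CT101. Ozone libraries held SAUR50 at 4.64, 11 and 4.97 CPM in C24, 2.61, 6.7 and 2.16 in Col-0, 4.29, 4.18 and 3.15 in Te and 2.7, 5.54 and 4.94 in CT101. The groups were apart in all lines. For SAUR50 the log2 fold changes were -1.97 ± 0.34 in C24, -2.72 ± 0.35 in Col-0, -3.16 ± 0.36 in Te and -2.43 ± 0.35 in CT101, with adjusted p-values up to 1.0e-04. Control libraries held SAUR1 at 1.22, 1.68 and 2.04 CPM in C24, 1.92, 2.71 and 3.15 in Col-0, 1.61, 3.36 and 1.55 in Te and 1.51, 1.2 and 2.18 in CT101. Ozone libraries held SAUR1 at 4.68, 4.32 and 7.42 CPM in C24, 5.87, 6.5 and 5.69 in Col-0, 10.3, 10.7 and 9.75 in Te and 7.64, 9.6 and 12.4 in CT101. Here every ozone library lay above every control of its line. For SAUR1 the log2 fold changes were 1.73 ± 0.30 in C24, 1.21 ± 0.28 in Col-0, 2.23 ± 0.28 in Te and 2.60 ± 0.29 in CT101, with adjusted p-values up to 9.5e-04.

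Control libraries held SAUR49 at 7.33, 11.7 and 13.2 CPM in C24, 5.76, 8.63 and 8.77 in Col-0, 5.91, 10.1 and 7.82 in Te and 8, 13.2 and 10.3 in CT101. Ozone libraries held SAUR49 at 6.08, 8.71 and 8.6 CPM in C24, 4.04, 4.89 and 3.32 in Col-0, 4.82, 4.82 and 5.12 in Te and 5.15, 12.4 and 7.41 in CT101. The groups overlapped in C24 and CT101 and not in Te and Col-0. For SAUR49 the log2 fold changes were -0.47 ± 0.28 in C24, -0.92 ± 0.30 in Col-0, -0.69 ± 0.30 in Te and -0.34 ± 0.28 in CT101, with adjusted p-values of 0.18, 0.012, 0.049 and 0.3. The call in Te was lost without any of 5 of the 6 libraries, at an adjusted p up to 0.21. In C24 the fit with replicate number as a block gave -0.45 at an adjusted p of 0.041.

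**Figure D2:**
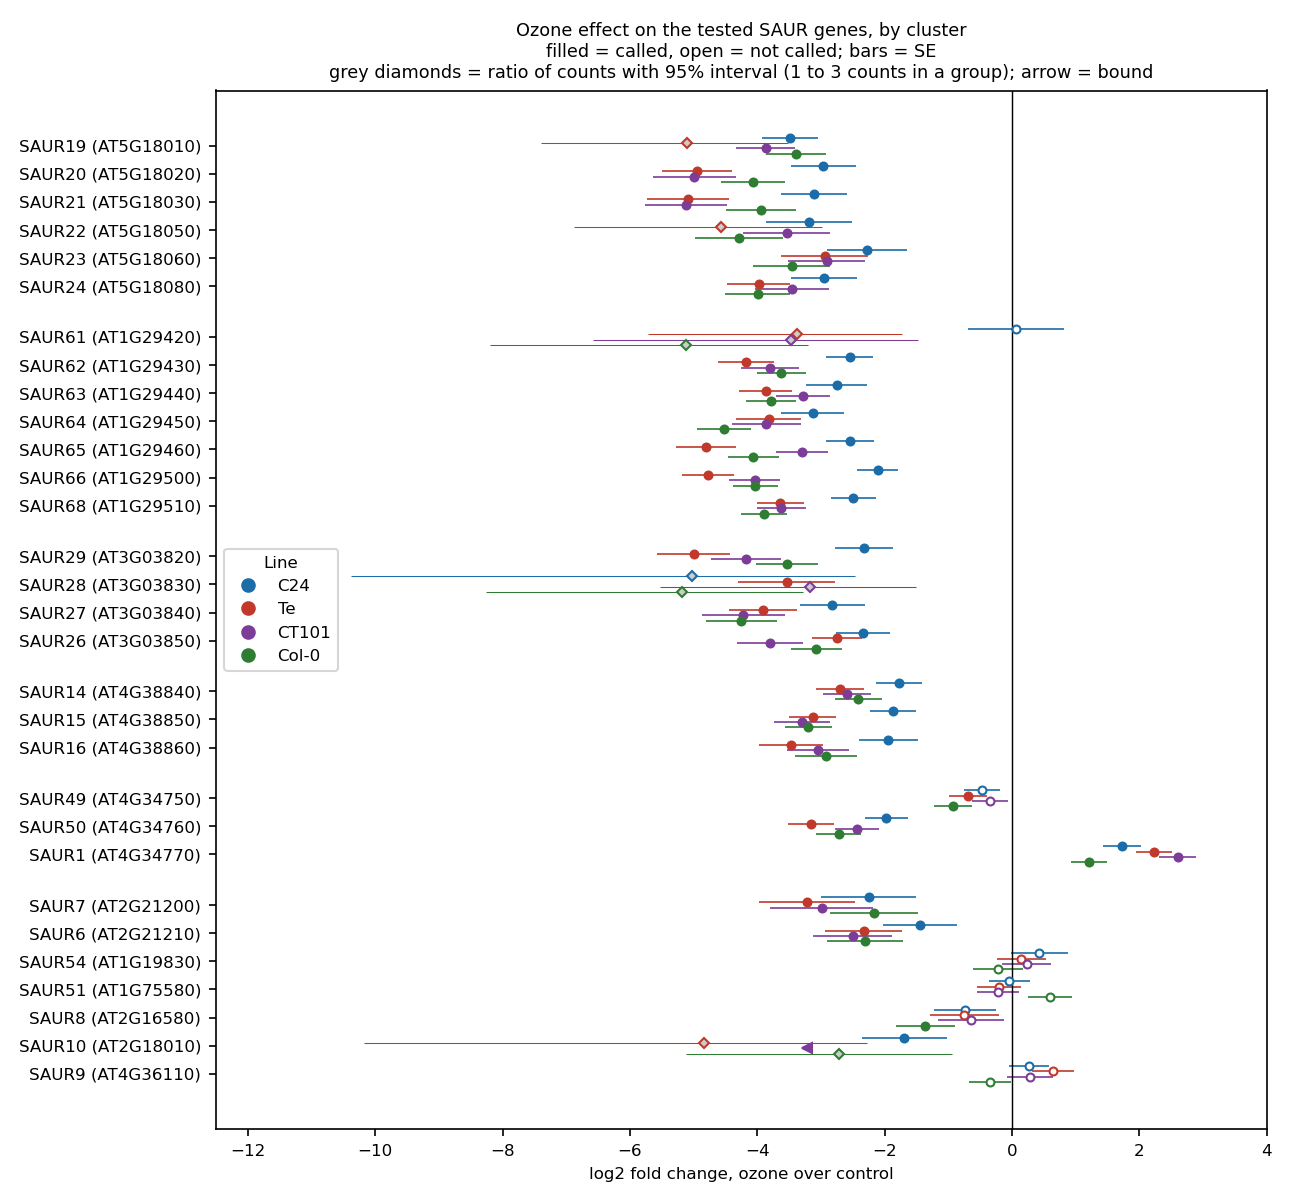
Log2 fold change, ozone over control, of the 30 tested members in each line, grouped by cluster, with the standard error. Filled points were called and open points were not, grey diamonds are ratios of counts with 95% counting intervals and the arrow is a bound. Members of the 4 upper clusters lie left of 0 except SAUR61 in C24, and SAUR1 lies right of 0 in all lines.

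Among the single members, SAUR6 (AT2G21210), its neighbour SAUR7 (AT2G21200) and SAUR10 (AT2G18010) were lower in all 4 lines. SAUR8 (AT2G16580) was lower in Col-0, and SAUR54 (AT1G19830), SAUR51 (AT1G75580) and SAUR9 (AT4G36110) were not called in any line. Summed over the 10 loci, the level under ozone was 48.7% of the control in C24, 29.9% in Col-0, 30.7% in Te and 29.8% in CT101, most of it from SAUR6. Control libraries held SAUR6 at 33.4, 51.6 and 40.5 CPM in C24, 37.5, 47.3 and 50.1 in Col-0, 31.3, 66.5 and 41.1 in Te and 32, 50.9 and 25 in CT101. Ozone libraries held SAUR6 at 6.62, 29.1 and 10.9 CPM in C24, 3.45, 14.7 and 8.84 in Col-0, 4.41, 16.3 and 7.4 in Te and 2.24, 12.6 and 4.45 in CT101. Ozone replicate 2 was the highest ozone library in all lines and in C24 came close to the lowest control. For SAUR6 the log2 fold changes were -1.45 ± 0.58 in C24, -2.31 ± 0.60 in Col-0, -2.33 ± 0.61 in Te and -2.50 ± 0.62 in CT101, with adjusted p-values of 0.048, 0.0028, 0.0026 and 0.0015. The call in C24 was lost in 7 alternatives, among them DESeq2 and each omission of 1 library other than ozone replicate 2, at an adjusted p up to 0.19.

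SAUR7 fell by log2 fold changes of -2.25 ± 0.75 in C24, -2.16 ± 0.69 in Col-0, -3.22 ± 0.75 in Te and -2.99 ± 0.81 in CT101, with adjusted p-values up to 0.019. Its locus overlaps AT2G21195 on the opposite strand. SAUR10 fell by -1.69 ± 0.67 (adjusted p = 0.046) in C24, a call lost under 6 alternatives, with an ozone library inside the range of controls. It had 0 counts in CT101 under ozone, which makes it at least 9.29-fold lower if 3 counts in the group are taken as the floor, and it was 28.7-fold (95% counting interval 4.85 to 1160) lower in Te and 6.57-fold (95% counting interval 1.93 to 34.6) lower in Col-0. SAUR8 gave -1.36 ± 0.46 (adjusted p = 0.015) in Col-0 and estimates of -0.74, -0.75 and -0.64 in C24, Te and CT101 that did not pass the test. AT2G16575 lies on the opposite strand of SAUR8.

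Control libraries held SAUR51 at 4.48, 4.8 and 5.85 CPM in C24, 1.28, 3.16 and 2.79 in Col-0, 2.44, 4.08 and 3.88 in Te and 2.49, 5.27 and 5.11 in CT101. Ozone libraries held SAUR51 at 4.49, 6.18 and 4.11 CPM in C24, 2.76, 4.85 and 3.43 in Col-0, 2.26, 3.24 and 3.58 in Te and 2.65, 5.23 and 3.21 in CT101. The groups overlapped in every line, and the log2 fold changes of SAUR51 were -0.04 ± 0.32 in C24, 0.60 ± 0.34 in Col-0, -0.20 ± 0.35 in Te and -0.22 ± 0.33 in CT101. Control libraries held SAUR9 at 2.5, 4.25 and 1.93 CPM in C24, 1.16, 3.29 and 1.65 in Col-0, 1.56, 1.84 and 2.28 in Te and 1.15, 1.49 and 1.29 in CT101. Ozone libraries held SAUR9 at 3.48, 4.12 and 2.94 CPM in C24, 1.38, 1.94 and 1.55 in Col-0, 2.55, 2.21 and 4.07 in Te and 1.53, 1.72 and 1.54 in CT101. Levels of SAUR9 overlapped in C24, Te and Col-0, and its log2 fold changes were 0.27 ± 0.31 in C24, -0.35 ± 0.33 in Col-0, 0.65 ± 0.33 in Te and 0.29 ± 0.36 in CT101. Control libraries held SAUR54 at 0.582, 0.593 and 0.366 CPM in C24, 1.05, 0.986 and 0.929 in Col-0, 1.03, 0.765 and 1.14 in Te and 1.33, 0.671 and 0.545 in CT101. Ozone libraries held SAUR54 at 0.676, 0.598 and 0.801 CPM in C24, 0.888, 1.29 and 0.276 in Col-0, 1.33, 1.18 and 0.74 in Te and 0.866, 0.862 and 1.3 in CT101. SAUR54 was slightly higher in all C24 ozone libraries than in its controls, and its log2 fold changes were 0.43 ± 0.45 in C24, -0.22 ± 0.39 in Col-0, 0.15 ± 0.39 in Te and 0.23 ± 0.39 in CT101. The adjusted p-values of these 3 genes were at least 0.093 in all lines. A block on replicate number gave an adjusted p of 0.019 for SAUR51 in Col-0 and 0.048 for SAUR9 in Te, though the numbers do not pair control and ozone libraries in those lines by the criterion used.

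The size of the falls rested in part on ozone replicate 2. Of the called members with a fitted fold change, 12 of 23 in C24 and 14 of 24 in Col-0 fell by over 1.5 times more without that library, in C24 by up to 1.45 more on the log2 scale and in Col-0 by up to 1.96. In Te this held for 3 of 22 and in CT101 for 4 of 22, the furthest being SAUR27 in CT101, which had counts in that library alone of the ozone libraries. Other libraries moved single members that far: Te ozone replicate 1 (SAUR64, SAUR28, SAUR7) and replicate 3 (SAUR28), CT101 ozone replicate 1 (SAUR20, SAUR66, SAUR27, SAUR26) and replicate 3 (SAUR62), and Col-0 control replicate 2 (SAUR7).

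Levels of different genes were compared per kilobase of coding sequence, which ignores untranslated ends. In C24 controls, SAUR16 and SAUR14 were highest at 205 and 189 CPM per kb, followed by SAUR6 at 84 and SAUR50 at 81.7, SAUR21 at 35.5 and SAUR49 at 23.7. SAUR16 and SAUR14 were the top pair in all 4 controls, where SAUR16 ranged from 171 to 228 CPM per kb and SAUR14 from 177 to 205. SAUR6 and SAUR50 came next in each, in either order, and SAUR21 was the fifth. In C24 neither pair differed beyond the spread between its libraries. The tested members at the lowest level in C24 controls were SAUR61, SAUR54 and SAUR10 at 0.195, 1.45 and 1.49 CPM per kb.

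The members' upstream sequences were searched for 6 motifs on both strands, in the 250 bases before the outermost annotated start. They were CATGTG, an E-box known to be bound by PIF factors, CACGTG, the G-box, TGTCTC and TGTCGG, bound by auxin response factors, and CGTGTG and CGTGCG, bound by BZR factors. Windows are shown for SAUR62, SAUR66 and SAUR15, which hold both CATGTG and TGTCTC, as SAUR22 and SAUR68 also do. Others are shown for SAUR16 and SAUR50, which fell as well and have none of the motifs. All windows are read 5′ to 3′ in the direction of the gene from the RefSeq TAIR10.1 genome. Capitals mark motifs in either orientation, with CACATG and GAGACA as reverse complements.
SAUR62, chr1:10303419-10303668, minus strand: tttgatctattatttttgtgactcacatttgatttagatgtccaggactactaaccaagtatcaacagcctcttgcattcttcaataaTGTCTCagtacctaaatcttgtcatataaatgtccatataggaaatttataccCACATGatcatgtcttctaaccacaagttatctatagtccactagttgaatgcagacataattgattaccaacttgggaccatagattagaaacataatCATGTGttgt
SAUR66, chr1:10320761-10321010, plus strand: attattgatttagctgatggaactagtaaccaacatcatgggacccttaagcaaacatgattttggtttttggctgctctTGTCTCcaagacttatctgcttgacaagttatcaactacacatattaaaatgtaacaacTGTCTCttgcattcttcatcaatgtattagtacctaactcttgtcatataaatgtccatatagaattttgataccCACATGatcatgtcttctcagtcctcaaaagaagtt
SAUR15, chr4:18125807-18126056, plus strand: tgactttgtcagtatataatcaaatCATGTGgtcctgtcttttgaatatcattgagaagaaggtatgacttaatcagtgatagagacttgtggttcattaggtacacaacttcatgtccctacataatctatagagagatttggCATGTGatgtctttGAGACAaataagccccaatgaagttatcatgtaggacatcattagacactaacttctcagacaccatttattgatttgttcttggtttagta
SAUR16, chr4:18129987-18130236, plus strand: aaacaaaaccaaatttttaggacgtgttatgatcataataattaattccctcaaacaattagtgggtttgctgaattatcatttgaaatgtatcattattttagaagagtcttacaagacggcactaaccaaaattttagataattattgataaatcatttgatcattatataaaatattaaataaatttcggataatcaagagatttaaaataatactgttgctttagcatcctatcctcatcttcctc
SAUR50, chr4:16583076-16583325, minus strand: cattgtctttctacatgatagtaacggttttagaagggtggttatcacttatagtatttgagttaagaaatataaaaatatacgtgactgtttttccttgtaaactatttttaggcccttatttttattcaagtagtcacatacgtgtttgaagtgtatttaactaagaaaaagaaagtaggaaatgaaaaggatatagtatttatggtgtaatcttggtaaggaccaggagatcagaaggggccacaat
CATGTG was found before 25 of the 35 members, or 71.4%, and before 2978 of 26699 protein-coding loci, or 11.2%. It stood before all 8 members of the AT1G294-295 cluster, 4 of 4 in AT3G038, 3 of 4 in AT4G388, 3 of 6 in AT5G180, 1 of 3 in AT4G347 and 6 of 10 single members. It was found before 16 of the 23 members lower in all lines, 5 of the 7 other tested members and 4 of the 5 that failed the filter.

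TGTCTC was found before 7 members, or 20%, against 10.9% of all loci, TGTCGG before 2 members, or 5.71%, against 4.19%, and CGTGCG before 1 member, or 2.86%, against 1.58%. CACGTG and CGTGTG were in none of the 35 windows, with 6.57% and 5.37% of all loci holding them. No site overlapped a site of another motif. Members of a tandem cluster share ancestry and the windows of the divergent neighbours SAUR14 and SAUR15 overlap by a few bases, so these windows are not independent. A match describes letters in a window and shows no binding.

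The next comparison asks whether SAUR levels differed between lines without ozone. Controls of the other lines were set against C24, so the 3 comparisons share the C24 control libraries. Te controls had 6 members higher than C24, which were SAUR61, SAUR63, SAUR26, SAUR15, SAUR20 and SAUR24, where 12.4% of all tested genes were higher, 17.7% lower and 30.1% called in either direction. CT101 controls had 2 higher, SAUR61 and SAUR63, and 1 lower, SAUR9, where 6.18% were higher, 10.4% lower and 16.6% called. Col-0 controls had 3 higher, SAUR61, SAUR63 and SAUR64, and 1 lower, SAUR51, where 11.7% were higher, 14.7% lower and 26.4% called. Of the 30 tested members, 6, 3 and 4 were thus called in either direction in Te, CT101 and Col-0, in each case a smaller share than that of all genes. In Te the 6 calls were all higher, which is a larger share of the members than the 12.4% of all genes.

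SAUR61 was the member with the largest difference between controls. At 0.116, 0.0989 and 0.104 CPM in C24 it was below every control library of the other lines. Its log2 differences from C24 were 2.59 ± 0.54 (adjusted p = 9.5e-04) in Te, 1.93 ± 0.57 (adjusted p = 0.024) in CT101 and 3.30 ± 0.51 (adjusted p = 4.7e-05) in Col-0. SAUR63 stood at 2.74, 2.32 and 2.51 CPM in C24, 12.2, 12.8 and 7.02 in Col-0, 10.8, 7.54 and 7.97 in Te and 6.53, 6.52 and 5.16 in CT101. Every library outside C24 lay above the C24 controls, and the log2 differences of SAUR63 were 1.80 ± 0.34 (adjusted p = 3.6e-04) in Te, 1.27 ± 0.34 (adjusted p = 0.013) in CT101 and 2.08 ± 0.34 (adjusted p = 9.0e-05) in Col-0. Sequence shared with SAUR62 and SAUR68 limits what the SAUR63 value means for a single gene. Sequence differences between the accessions and the reference genome can also change how many reads are counted at a locus, which was not tested.

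SAUR64 stood at 2.91, 3.46 and 2.04 CPM in C24, 12, 9.98 and 8.31 in Col-0, 4.25, 4.33 and 3.47 in Te and 4.13, 2.45 and 2.03 in CT101. Col-0 controls lay above the rest, and SAUR64 differed from C24 by 1.85 ± 0.35 (adjusted p = 4.3e-04) in Col-0 and by 0.52 ± 0.36 (adjusted p = 0.3) in Te. In Te, the log2 differences were 1.21 ± 0.39 for SAUR20, 1.38 ± 0.38 for SAUR24, 1.09 ± 0.32 for SAUR26 and 1.11 ± 0.31 for SAUR15, with adjusted p-values up to 0.022. SAUR51 was lower in Col-0 by -1.04 ± 0.34 (adjusted p = 0.026) and SAUR9 lower in CT101 by -1.15 ± 0.33 (adjusted p = 0.021).

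Replicate numbers pair the control libraries of C24 with those of the other lines, by the correlation of their deviations. They do not pair CT101 with Col-0 controls (lowest 0.0186), nor control with ozone libraries in Te or Col-0. The block was a common replicate effect over all 24 libraries, ozone libraries included, so its counts are not a paired test of the controls alone. With replicate number as a block, 10 members differed in Te, where 37.4% of all tested genes did, with SAUR65, SAUR66 and SAUR68 added as higher and SAUR51 as lower. In Col-0 there were 9, beside 33.1% of all genes, with SAUR65, SAUR66, SAUR26 and SAUR15 added as higher and SAUR49 as lower, and in CT101 there were the same 3, beside 22.9%. Counts without the block were small and unstable: without C24 control replicate 3 the Te count was 3, and the CT101 count was 0 without C24 control replicate 2 and 1 without CT101 control replicate 1.

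**Figure D3:**
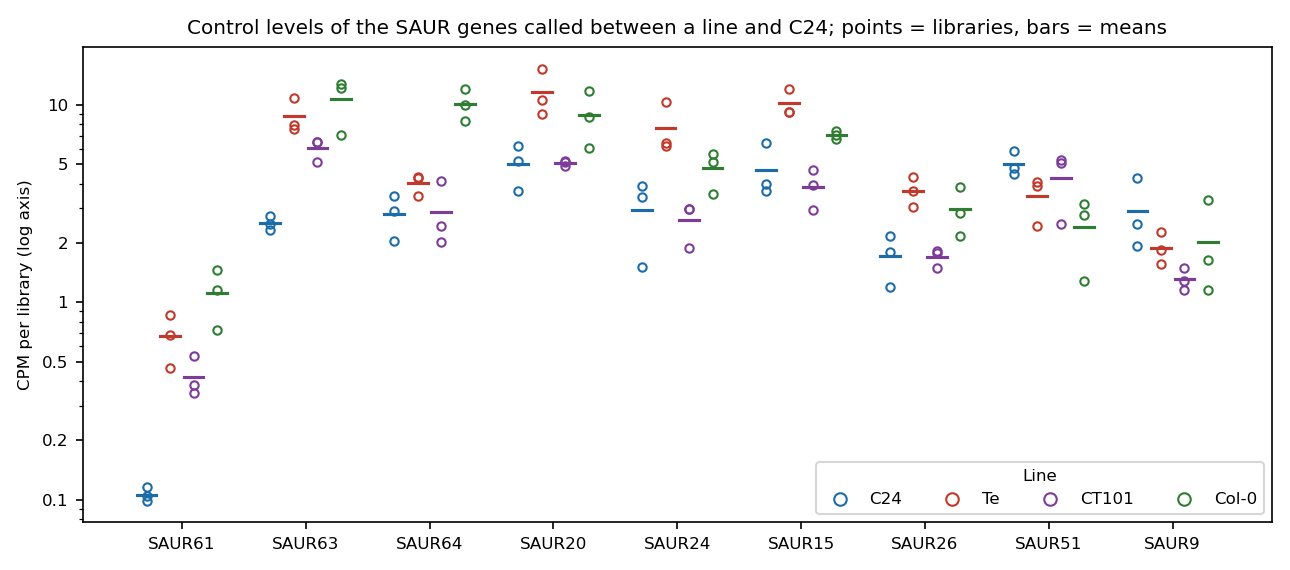
CPM in each control library, on a log axis, of the 9 members called between a line and C24, with the mean of 3 libraries as a bar. SAUR61 and SAUR63 in C24 lie below the controls of the other lines, and SAUR64 is highest in Col-0.

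The last comparison asks whether the lines differed in the size of the ozone effect, by the contrast of the ozone effect in a line minus that in C24. These 3 contrasts share the 6 C24 libraries. In Te, 3 members had a larger fall than in C24 and 0 a smaller one, where 1.81% of all tested genes were lower in this contrast, 7.77% higher and 9.58% called in either direction. SAUR66 differed by -2.66 ± 0.57 (adjusted p = 0.0049), SAUR65 by -2.28 ± 0.68 (adjusted p = 0.037) and SAUR29 by -2.68 ± 0.81 (adjusted p = 0.04). In CT101, SAUR66 was the 1 member called, at -1.93 ± 0.55 (adjusted p = 0.032), where 2.61% of all genes were lower, 7.09% higher and 9.71% called. In Col-0, 2 were called, SAUR66 at -1.91 ± 0.50 (adjusted p = 0.036) and SAUR61 at an adjusted p of 0.014, where 0.506% were lower, 2.86% higher and 3.37% called. With at most 3 counts of SAUR61 under ozone in Col-0, its difference is given no size. C24 held 6 counts of SAUR61 in controls and 6 under ozone, so a fall in C24 had little room to show.

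Of these, the call of SAUR66 in Te held under all 18 alternatives run for it, with log2 differences from -2.92 to -2.42 and adjusted p-values up to 0.023. The count in Te was 1 when any single library among C24 control replicate 3, C24 ozone replicate 2, Te control replicates 1 and 2 and Te ozone replicates 1 and 3 was left out. In CT101 it was 0 without C24 control replicate 3, C24 ozone replicate 2, CT101 control replicate 1 or CT101 ozone replicate 3, and in Col-0 it was 0 without C24 ozone replicate 2 and 5 without Col-0 ozone replicate 2. Without C24 ozone replicate 2, SAUR66 stood at -1.73 in CT101 (adjusted p = 0.1) and at -1.71 in Col-0 (adjusted p = 0.11), SAUR65 in Te at -2.11 (adjusted p = 0.1) and SAUR29 in Te at -1.69 (adjusted p = 0.23). With replicate number as a block the counts were 5 in Te, 2 in Col-0 and 3 in CT101, with SAUR61 and SAUR15 added in Te and in CT101, both at adjusted p-values up to 0.04. Under the block 3.9% of all tested genes were lower in Te, 1.08% in Col-0 and 7.58% in CT101.

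Estimates for most other members lay on the same side. Among members with more than 3 counts in all 4 groups of a contrast, 23 of 25 were below 0 in Te, 23 of 27 in CT101 and 24 of 27 in Col-0, with medians of -1.03, -0.74 and -0.97, where the medians of all genes were between 0.00 and 0.01. All-gene medians mix genes that rose with genes that fell, and the share of all genes below 0 was not counted. Called falls of at least 2-fold covered 4.87% of all tested genes in C24, against 8.42% to 13.9% for the other lines. Whether other falling genes also lay below 0 was not tested, so this side is not shown to be particular to SAUR genes. Tandem copies count here as separate members. The members' medians were -0.41, -0.34 and -0.48 without C24 ozone replicate 2, the library nearest to the controls. By cluster, the Te estimates for AT5G180 ran from -1.99 to -0.66, or from -1.36 to 0.02 without that library, and the Te medians were -1.39 for AT1G294-295, -1.25 for AT4G388, -1.08 for AT3G038, -0.22 for AT4G347 and -0.22 for single members. Without that library the Te medians of AT1G294-295, AT5G180, AT4G388 and AT3G038 were -1.09, -0.71, -0.41 and -0.78. The AT5G180 median went from -0.57 to -0.13 in CT101 and from -1.06 to -0.18 in Col-0 without it, with 3 of 6 members below 0 in each. That of AT1G294-295 went from -0.95 to -0.70 in CT101 and from -1.40 to -1.08 in Col-0. The medians without that library keep ozone replicate 2 of the other lines, where it also lay nearest to the controls. With ozone replicate 2 left out of every line, the AT5G180 sum under ozone was 7.17% of the control for C24. The corresponding shares were 2.39% (Col-0), 3.48% (Te) and 4.98% (CT101). For AT4G388 they were 16.9% (C24), 9% (Col-0), 9.14% (Te) and 12.7% (CT101). Response differences with replicate 2 left out of both lines were not tested.

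**Figure D4:**
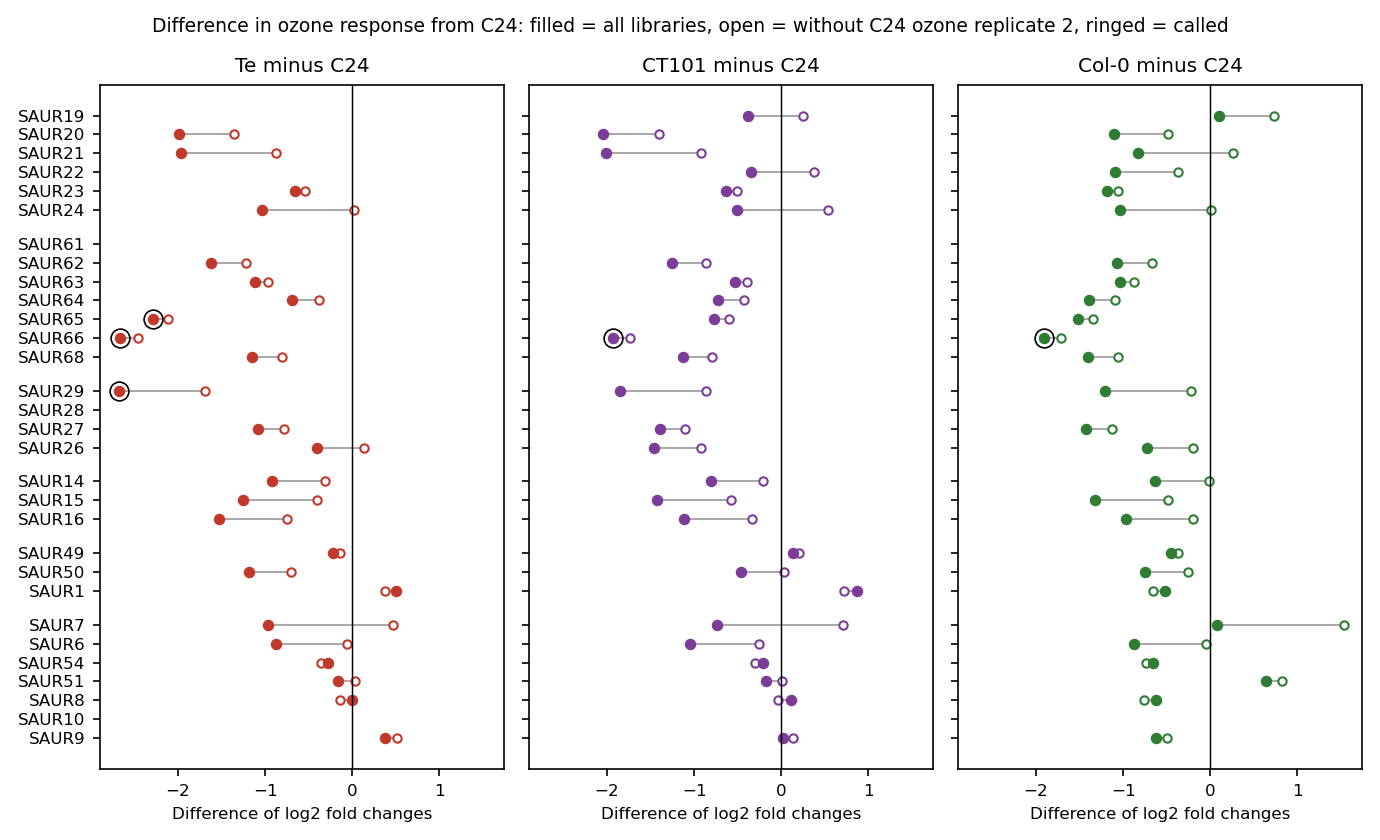
Ozone effect in Te, CT101 and Col-0 minus that in C24, as a difference of log2 fold changes, for members with more than 3 counts in all groups. Filled points use all libraries, open points leave out C24 ozone replicate 2 and rings mark calls. SAUR61, SAUR28 and SAUR10, and in Te also SAUR19 and SAUR22, have too few counts and are not drawn. Most filled points lie left of 0, most open points lie nearer to it, and SAUR66 is ringed in all 3 panels.

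Other genes of the auxin pathway were set beside the members. The other SAUR loci listed were 41, of which 24 passed the filter, of which 5 were lower and 7 higher in C24, 7 and 10 in Te, 7 and 9 in CT101, and 8 and 8 in Col-0. Of all tested genes, 22.2%, 30.9%, 32.4% and 26.9% were lower and 25.6%, 32%, 32.9% and 30% higher. At most 22.2% of them can thus be lower in all 4 lines and at most 25.6% higher. Those higher in all 4 lines were SAUR5, SAUR36, SAUR41, SAUR55, SAUR59, SAUR71 and SAUR72. SAUR72 rose from 7.42 ± 2 to 31.5 ± 4.81 CPM in C24 (SD, n = 3) and by log2 fold changes of 2.08, 3.42, 3.07 and 2.71, where here and hereafter values follow the lines C24 and Te, then CT101 and Col-0. For SAUR5 they were 2.79, 3.18, 4.34 and 3.03. Those lower in all 4 lines were SAUR32, SAUR33, SAUR75 and SAUR78, with SAUR75 at -2.19, -4.26, -3.19 and -4.03.

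Aux/IAA proteins repress auxin-responsive genes and are themselves auxin-induced. Of the 15 listed here, all of which were tested, 11 were lower in C24, 12 in Col-0, 14 in Te and 12 in CT101. Of all tested genes, 22.2% to 32.4% were lower. Aux/IAA genes outside this list were not looked at. SHY2, which is IAA3, fell by log2 fold changes of -2.20, -3.42, -3.61 and -2.91 and IAA6 by -2.11, -2.60, -2.67 and -3.97. IAA2 was higher in CT101, at 1.07 ± 0.25. Of 4 GH3 enzymes, which conjugate auxin to amino acids, WES1 and DFL1 were higher in C24 and BRU6 in Te, and none was called in CT101 or Col-0. Of all tested genes, 25.6% to 32.9% were higher. DFL1 stood at 0.47 ± 0.19 in C24 with an adjusted p of 0.048, a call lost in 6 alternatives, and BRU6 at 0.99 ± 0.41 in Te, lost in 5.

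Of the 5 auxin receptors tested, 4 were lower and AFB2 was higher in each line. For this list and the others of this paragraph, 22.2% to 32.4% of all tested genes were lower and 25.6% to 32.9% higher. TIR1 ran from -1.09 in Col-0 to -0.79 in C24, AFB5 stood at -0.37, -0.85, -0.70 and -0.77 and AFB2 at 0.45, 0.74, 0.82 and 0.58, though the call of AFB5 in C24 was lost in 7 alternatives. Of 5 activating ARF factors, 3 were lower in each line, with ARF19 at -0.51, -0.73, -0.82 and -0.52. NPH4, which is ARF7, was higher at 0.58, 1.08, 1.20 and 1.06, and ARF6 was higher in Te, CT101 and Col-0 at 0.44, 0.59 and 0.66. Of the 4 synthesis genes tested, YUC2 and YUC6 were lower in all lines, YUC6 at -0.81, -1.88, -1.40 and -1.36 and YUC2 at -1.42, -1.40, -1.23 and -1.20. The call of YUC6 in C24 was lost in 6 alternatives. Of 6 transport genes, 4 were lower in C24 and 5 in each other line. The efflux carriers PIN3 and PIN4 stood at -1.11, -2.17, -1.85 and -2.12 and at -0.92, -1.94, -1.49 and -1.73, and the influx carrier LAX3 was higher in Te and CT101 at 0.48 and 0.65.

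Of 9 PIF and brassinosteroid regulators, 5 were lower in C24, 7 in Col-0, 6 in Te and 7 in CT101, beside the same 22.2% to 32.4% of all genes. PRE1, a small helix-loop-helix protein that promotes growth, stood at -2.63, -3.65, -4.50 and -3.31, its relative KDR at -2.08, -3.77, -3.50 and -3.02 and PIF4 at -1.39, -2.08, -2.35 and -1.91. PIF3 was higher in all lines, at 0.77, 0.65, 1.06 and 0.69.

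The phosphatases that SAUR proteins bind were also listed. Of 9 PP2C.D phosphatases, 7 were higher in C24, 5 in Col-0, 6 in Te and 7 in CT101, beside 25.6% to 32.9% of all genes. AT4G33920 rose from 18.5 ± 1.16 to 124 ± 52.4 CPM in C24 and by log2 fold changes of 2.75, 3.05, 3.31 and 2.92, and AT3G12620 by 1.00, 1.62, 1.62 and 1.35. AT5G02760 was lower in Te, CT101 and Col-0 at -2.85, -1.82 and -2.88, and AT5G66080 in C24, CT101 and Col-0 at -1.36, -1.37 and -1.87. Both proton pumps, HA1 and HA2 (AHA1 and AHA2), were higher in all 4 lines, HA1 at 0.34, 0.81, 0.84 and 0.61 and HA2 at 0.65, 0.73, 0.93 and 0.75, though the call of HA1 in C24 was lost in 7 alternatives.

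**Figure D5:**
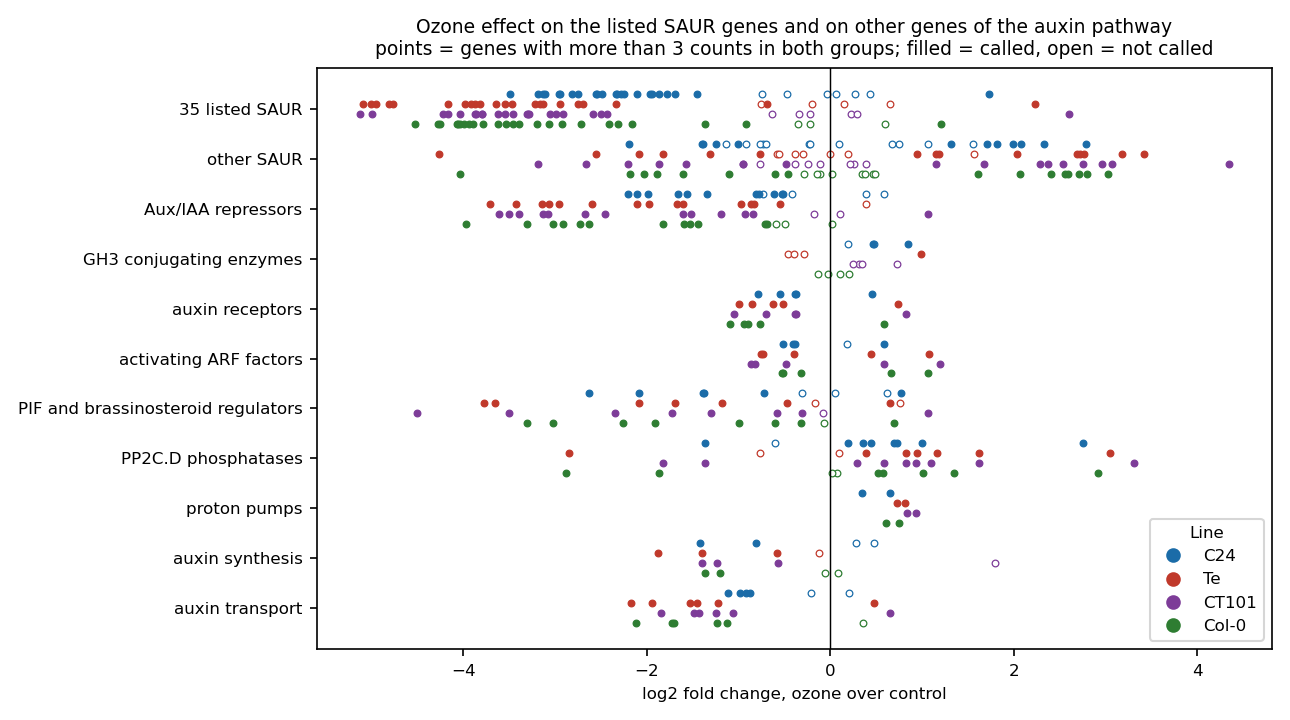
Log2 fold change, ozone over control, of the listed SAUR genes and of 10 lists of other auxin-related genes, with 1 point per gene and line for genes with more than 3 counts in both groups. Filled points were called. The listed SAUR genes and the Aux/IAA repressors lie mostly left of 0, the proton pumps and most PP2C.D phosphatases right of 0, and the other SAUR loci on both sides.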

How the data were processed

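RNA from whole rosettes was sequenced in 24 libraries of 8 groups. Each library has 1 deposited table, with raw counts by annotated locus. Per the submitters' processing notes, FastQC, Bowtie2, SAMtools and HTSeq were used with the TAIR10 build, and their versions, order, strand setting and treatment of reads with several matches are not given in the sources used here.

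The analysis used edgeR 4.0.16 (limma 3.58.1) in R 4.3.3. After filterByExpr (minimum count 10, minimum total 15) and TMM scaling, the robust quasi-likelihood model was fitted to all 24 libraries with 1 mean per group. The 10 contrasts were 2-sided, with Benjamini-Hochberg adjustment over 20554 genes and a call at an adjusted p under 0.05. CPM are TMM-scaled. Where a group held 1 to 3 counts, a CPM ratio with a 95% interval replaces the fitted fold, and where it held 0, a bound against 3 counts does. These cover counting error only. Members and lists were chosen with earlier results of these data known, so no list was tested as a set and no p-value was adjusted over a list alone. Values in every library are given for the 2 members of each cluster, and the 4 single members, with the highest mean CPM over all libraries. Members that rose, that differed in response or that failed the filter are also named, and of the lists the called genes with the largest summed change and those against their list.

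Whether replicate numbers pair libraries was judged from correlated deviations from group means, with a minimum of 0.1 for every pair. C24 controls passed with the controls of Te (lowest 0.21), CT101 (0.182) and Col-0 (0.281). Control and ozone libraries passed within C24 (0.103) and CT101 (0.162), not within Te (0.0404) or Col-0 (0.049). Libraries of a group differed beyond counting noise, so none was merged. Alternatives were RLE factors, library totals, no filter, DESeq2 1.42.0, a replicate block, the compared libraries alone and omission of each library. The replicate block was a common effect over all 24 libraries.

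Coding and upstream sequences came from the RefSeq TAIR10.1 genome. Of 31912 loci found there, 31900 (99.96%) overlap the gene of the same name at the deposited coordinates. Identities of coding sequences came from global pairwise alignments in Biopython 1.88, as matches over the aligned length with gaps. The stretch of 90 bases was taken from an alignment with MAFFT 7.526. Python 3.11.15 and matplotlib 3.10.9 drew the figures.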

Additional observations from a re-analysis of the deposited data

Results flagged for a closer look

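These results stood out because a test of the difference between ozone effects in 2 lines passed its threshold. The fall of SAUR66 was larger than in C24 by -2.66 on the log2 scale in Te, by -1.93 in CT101 and by -1.91 in Col-0. SAUR66 fell in all 3 libraries of each line, to 1.11, 1.6 and 1.01 CPM in C24 and to 0.232, 0.237 and 0.37 CPM in Te. SAUR65 differed between Te and C24 by -2.28, with 0.628, 0.864 and 0.587 CPM under ozone in C24 and 0.232, 0.158 and 0.247 CPM in Te. SAUR29 differed between Te and C24 by -2.68, with 0.193, 2.33 and 0.908 CPM under ozone in C24 and 0.348, 0.316 and 0.123 CPM in Te. SAUR61 differed between Col-0 and C24 at an adjusted p of 0.014, with 0.116, 0.0989 and 0.104 CPM in C24 controls and 1.46, 1.15 and 0.722 CPM in Col-0 controls, and its ozone counts in Col-0 were too few for a size. In C24, SAUR61 held 6 counts over the controls and 6 over the ozone libraries, so a fall there had little room to show. The call of SAUR66 in Te held whichever library was left out. Without C24 ozone replicate 2 the other 5 calls were lost, while SAUR65 in Te stood at -2.11, SAUR66 at -1.73 in CT101 and -1.71 in Col-0 and SAUR29 in Te at -1.69. All of these but SAUR61 also lost the call without other single libraries.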

How the results depend on the processing

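The ozone counts stayed within 1.5 times of the reported 24, 26, 25 and 27 called members (C24, Te, CT101, Col-0) in every alternative, and ranged from 21 to 24, 25 to 26, 25 to 26 and 25 to 27 when 1 library was left out. No called value changed sign. The control differences gave 3 to 6 calls in Te, 0 to 3 in CT101 and 3 to 5 in Col-0 when 1 library was left out. A replicate block gave 10 in Te and 9 in Col-0, and the compared libraries alone 10 in Te. The response differences gave 1 to 4 calls in Te, 0 to 2 in CT101 and 0 to 5 in Col-0 when 1 library was left out. A replicate block gave 5 in Te and 3 in CT101, and the compared libraries alone 0 in CT101 and 1 in Col-0. Beyond the calls named in the text, the replicate block changed no other call of a member. The cause of these changes was not tested.

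With library totals alone, the ozone effect had an all-gene median of -0.14 in C24, -0.14 in Col-0, -0.17 in Te and -0.13 in CT101, and the summed level in C24 controls was 309 CPM against 281 CPM. Moving the upstream window to the deposited start, an alternative chosen after the data were seen, gave CATGTG before 80% of members and 10.4% of all loci. It gave TGTCTC before 20% and 12.2%, with 2 members instead of 3 in AT1G294-295 and 1 instead of 0 in AT4G347. The TGTCTC sites shown for SAUR66 lie outside that window. The medians without C24 ozone replicate 2 were also chosen after the data were seen. Members at a few counts, such as SAUR61, SAUR28 and SAUR10, are limited by depth.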

Other observations

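SAUR1 lies in a longer run of SAUR loci on chromosome 4, of which SAUR2, SAUR3, SAUR4 and SAUR5 are among the other loci listed. SAUR2, next to SAUR1, did not pass the filter on low counts. SAUR5, further along this run, was higher in all 4 lines. SAUR3 was higher in Te and CT101, by log2 fold changes of 1.18 ± 0.27 and 1.67 ± 0.28, with 0.67 ± 0.29 in C24 and 0.49 ± 0.27 in Col-0. SAUR4 was lower in Te, at -1.31 ± 0.42. Within the stretch from SAUR49 to SAUR5, loci that rose and loci that fell thus lie close together. SAUR genes that rose under ozone, SAUR1, SAUR5, SAUR36, SAUR41, SAUR55, SAUR59, SAUR71 and SAUR72, were chosen as a group after their values were seen. SAUR36 and SAUR41, at log2 fold changes of 1.32, 2.03, 2.75 and 2.56 and 1.99, 2.69, 2.96 and 2.07 (C24 and Te first, then CT101 and Col-0), are known from work on leaf senescence and abscisic acid, respectively.

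The sums over the AT5G180 cluster in controls were highest in replicate 1 and lowest in replicate 3 in all 4 lines, at 27.9, 23 and 20.4 CPM in C24 and 48.6, 34.8 and 26.3 CPM in Te. Under ozone they were highest in replicate 2 in all 4 lines.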
